A study of Mus musculus with 9 samples.

Results

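The genes of antigen presentation were followed in gastrocnemius, a calf muscle, of 9 mice that differed in dystrophin, utrophin and the human dystrophin gene. The members are 4 class II genes (H2-Aa, H2-Ab1, H2-Eb1 and Cd74), 3 class I genes (H2-K1, H2-D1 and B2m) and 3 genes of antigen processing (Tap1, Psmb8 and Psmb9), 10 of the 8251 genes that the arrays name. They were taken by name, and every probe set annotated to 1 of them was used. A probe set is a group of short oligonucleotides on the array that together measure 1 transcript or a few close ones. The 10 genes had 15 probe sets of 12422, of which 4 belong to class II, 7 to class I and 4 to antigen processing.

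MHC class I molecules sit on almost all nucleated cells and show peptides cut from the cell's own proteins to CD8+ T cells. Each is a heavy chain, such as those of H2-K1 and H2-D1, held by beta-2 microglobulin, the product of B2m. The peptides are cut by the proteasome, whose inducible catalytic subunits Psmb8 and Psmb9 take the place of constitutive ones under interferon gamma, and they enter the endoplasmic reticulum through a transporter of which Tap1 is a subunit. MHC class II molecules show peptides of taken-up material to CD4+ T cells, are made mainly by macrophages, dendritic cells and B cells, and are guided by the invariant chain Cd74. Dystrophin-deficient muscle goes through fibre necrosis and regeneration and holds many infiltrating macrophages.

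Each mouse gave 1 Affymetrix U74Av2 array of RNA from its gastrocnemius. The mdx mice carry a mutation in Dmd, the mouse dystrophin gene (n = 2, aged 15 and 13 weeks). The mdx x utrn-/- mouse is deficient for dystrophin and for utrophin, a protein related to dystrophin (n = 1, 5 weeks). The hDMD x mdx mice have the Dmd mutation and the full-length human DMD gene (n = 2, 24 and 10 weeks), and the hDMD x mdx x utrn-/- mouse lacks both mouse proteins and carries the human gene (n = 1, 9 weeks). The hDMD mouse has the human gene beside its own (n = 1, 11 weeks). The wild-type mice, of a mixed C57Bl/DBA2/129OLA-Ev background, were 7 weeks old (n = 2). The strain background of the other genotypes is not given in the sources used here. All mice were male except wild-type 1. Replicate numbers follow the order of deposit and pair nothing. With 1 or 2 mice a genotype, age and, for wild-type, sex cannot be told apart from genotype or mouse.

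Levels are quantile normalised intensities on the log2(value + 16) scale, where the floor is 4.0, and they can be compared between arrays for 1 probe set but not between probe sets. Tissue is bulk, so fewer cells of a type and less RNA per cell cannot be told apart. Of the 9 arrays, 3 were bright in 9 added hybridisation controls (mdx 2, hDMD x mdx 1 and wild-type 1, with control medians of 206 to 225 in deposited units), and 6 were dim (28.5 to 42.3), so each genotype with 2 mice holds 1 bright and 1 dim array. Muscle fibre genes were present as the tissue label says, with 15 of 16 listed genes kept and a summed intensity of 30173 to 33926 in every array. The mouse Dmd probe set lay between 4.0 and 4.95 in all arrays and those of Utrn between 4.15 and 6.16, with the highest Utrn value in hDMD x mdx 2; neither separated the genotypes, and where these probes lie relative to the mutations is not given in the sources used here.

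Both classes of MHC gene have been studied for a shared promoter module, in which an X box is followed at a fixed distance by a Y box, an inverted CCAAT sequence. RefSeq windows of GRCm38.p6 that run 250 bases before to 50 after the gene start were given for 8 of the 10 genes, and 5 are shown because they let the class I and class II start regions be set side by side. They are H2-K1 (chr17:34000284-34000583, minus strand), H2-D1 (chr17:35262844-35263143, plus strand), B2m (chr2:122147437-122147736, plus strand), H2-Aa (chr17:34287774-34288073, minus strand) and H2-Eb1 (chr17:34305617-34305916, plus strand). Capitals mark, on either strand, the Y box ATTGG, the X2 box core TGACG, the interferon-stimulated element (a strict form, GAAA, any 2 bases and GAAA, and a loose form, GAANNGAAA), the enhancer A core GGGANTNCC, and the gamma-activated site core TTCNNNGAA. Overlapping matches run together in 1 stretch of capitals.
H2-K1: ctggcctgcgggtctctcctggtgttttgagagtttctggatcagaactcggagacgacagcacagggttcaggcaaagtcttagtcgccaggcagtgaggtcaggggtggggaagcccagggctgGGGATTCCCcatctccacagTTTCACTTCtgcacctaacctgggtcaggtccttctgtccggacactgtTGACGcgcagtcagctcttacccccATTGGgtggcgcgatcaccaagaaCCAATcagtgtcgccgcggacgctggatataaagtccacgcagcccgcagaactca
H2-D1: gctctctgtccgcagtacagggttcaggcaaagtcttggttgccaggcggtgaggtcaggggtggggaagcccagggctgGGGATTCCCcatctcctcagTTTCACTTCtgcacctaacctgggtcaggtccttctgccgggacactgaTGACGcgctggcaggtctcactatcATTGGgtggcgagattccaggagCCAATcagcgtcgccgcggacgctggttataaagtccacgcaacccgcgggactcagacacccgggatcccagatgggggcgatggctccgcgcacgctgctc
B2m: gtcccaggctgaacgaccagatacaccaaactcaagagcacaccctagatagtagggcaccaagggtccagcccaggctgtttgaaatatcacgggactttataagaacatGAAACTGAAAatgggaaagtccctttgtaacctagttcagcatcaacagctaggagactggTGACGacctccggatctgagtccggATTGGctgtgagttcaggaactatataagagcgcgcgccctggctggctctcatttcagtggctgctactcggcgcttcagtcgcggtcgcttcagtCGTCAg
H2-Aa: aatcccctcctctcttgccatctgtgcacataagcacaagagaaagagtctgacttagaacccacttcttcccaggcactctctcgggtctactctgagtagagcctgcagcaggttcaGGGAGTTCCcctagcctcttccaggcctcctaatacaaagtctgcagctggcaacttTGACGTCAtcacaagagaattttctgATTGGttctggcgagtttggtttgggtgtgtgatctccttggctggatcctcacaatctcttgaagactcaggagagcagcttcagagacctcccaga
H2-Eb1: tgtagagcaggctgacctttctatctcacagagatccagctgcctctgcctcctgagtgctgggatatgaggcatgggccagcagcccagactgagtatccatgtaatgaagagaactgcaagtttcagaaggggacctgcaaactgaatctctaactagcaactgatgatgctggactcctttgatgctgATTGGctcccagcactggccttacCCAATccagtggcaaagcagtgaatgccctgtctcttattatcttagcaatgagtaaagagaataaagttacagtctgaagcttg

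In these windows, TGACG was followed by ATTGG on the gene's strand at 25 bases from start to start in H2-K1, H2-D1 and B2m, and at 26 bases in H2-Aa. This order within 40 bases was found in 153 of 27025 promoter windows of the same length, 0.566%. H2-Eb1 held the Y box but no exact match to TGACG, and other spellings of an X box were not searched. The Y box was present in 37.9% of all windows and the X2 core in 21.0%, so neither sets the members apart by itself. The rule of order and distance, the loose interferon form and the letters of the enhancer A core were chosen after the sequences were read.

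H2-K1 and H2-D1 also shared the enhancer A core, which matched on both strands at 1 place in each, and the loose interferon-stimulated form after it. Of all windows, 3.95% held GGGANTNCC and 7.56% held GAANNGAAA. H2-Aa held 1 match of the enhancer A core. B2m alone of the shown windows held the strict interferon-stimulated form, found in 3.49% of all windows. The windows of Tap1 and Psmb9 overlap by 275 bases on opposite strands, since these neighbouring genes start back to back, and each held 1 ATTGG and 1 TGACG on opposite strands. Psmb8 held only TTCNNNGAA, a form present in 8.47% of all windows. These matches are descriptions of letters and not of bound sites.

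Of the 15 probe sets, 13 had a mean level above the 40th percentile of all arrays' probe sets and were tested, and each of the 10 genes kept at least 1. The 2 that were not kept stayed near the floor: the H2-K1 probe set 97700_at lay between 4.0 and 4.96, and the Tap1 probe set 162278_r_at between 4.0 and 4.71. Of the 6 probe sets of H2-K1 and H2-D1, 5 are marked by the array's maker as shared by a gene family. Class I heavy chains are near-identical in sequence, so these values are uncertain as measures of 1 gene. Another 3 probe sets carry several symbols with H2-K1 or H2-D1 among them and were not used. Genes with several probe sets are shown by the probe set whose mean level was highest.

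**Figure D1:**
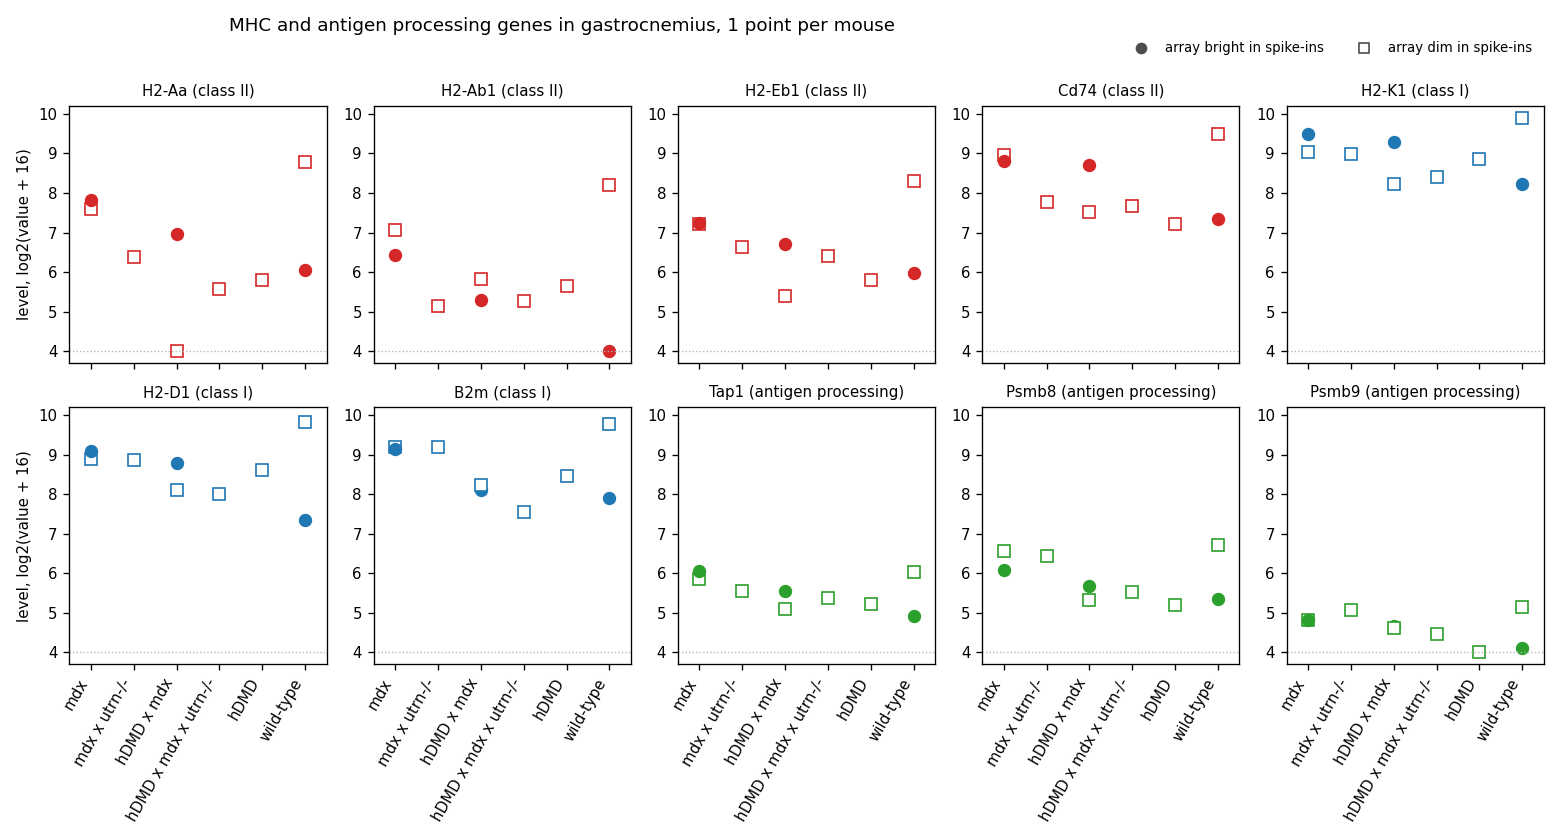
Level of each of the 10 genes (y axis, log2(value + 16), dotted line at the floor of 4) by genotype (x axis), with 1 point per mouse. Filled circles are arrays bright in the spike-in controls and open squares are dim ones; in 9 of the 10 genes the highest point is wild-type 2, and the other wild-type mouse lies far below it.

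Among class II genes, H2-Aa encodes the alpha chain of the I-A molecule. It lay at 7.61 and 7.83 in the mdx arrays, 6.38 in mdx x utrn-/-, 6.98 and 4.0 in hDMD x mdx, 5.56 in hDMD x mdx x utrn-/-, 5.79 in hDMD, and 6.04 and 8.78 in the wild-type arrays. The second hDMD x mdx array was at the floor, and wild-type 2 lay above every other array. H2-Ab1, the beta chain of the same molecule, had 7.06 and 6.43 in mdx, 5.15 in mdx x utrn-/-, 5.30 and 5.83 in hDMD x mdx, 5.27 in hDMD x mdx x utrn-/-, 5.64 in hDMD, and 4.0 and 8.20 in wild-type. Here wild-type 1 was at the floor and wild-type 2 was the highest, so that the wild-type pair spanned the whole range of the gene.

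H2-Eb1, the beta chain of the I-E molecule, had 7.23 and 7.25 in mdx, 6.63 in mdx x utrn-/-, 6.72 and 5.40 in hDMD x mdx, 6.42 in hDMD x mdx x utrn-/-, 5.81 in hDMD, and 5.97 and 8.31 in wild-type. The probe set of H2-Ea, which encodes the partner alpha chain of I-E, was at the floor in 7 of 9 arrays and reached 4.34 at most. Cd74, the invariant chain, had 8.95 and 8.82 in mdx, 7.77 in mdx x utrn-/-, 8.71 and 7.52 in hDMD x mdx, 7.68 in hDMD x mdx x utrn-/-, 7.21 in hDMD, and 7.34 and 9.49 in wild-type. In all 4 class II genes both mdx arrays lay above the mdx x utrn-/- array and below wild-type 2.

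Among class I genes, H2-K1 had 9.04 and 9.50 in mdx, 8.99 in mdx x utrn-/-, 9.30 and 8.22 in hDMD x mdx, 8.41 in hDMD x mdx x utrn-/-, 8.86 in hDMD, and 8.23 and 9.90 in wild-type, by its represented probe set. The pairs of hDMD x mdx and of wild-type arrays each covered most of its range. H2-D1 had 8.89 and 9.08 in mdx, 8.86 in mdx x utrn-/-, 8.79 and 8.10 in hDMD x mdx, 8.01 in hDMD x mdx x utrn-/-, 8.61 in hDMD, and 7.35 and 9.82 in wild-type. Its arrays without dystrophin lay close together, and the wild-type arrays were its lowest and its highest.

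B2m, the light chain that all class I molecules share, had 9.19 and 9.15 in mdx, 9.20 in mdx x utrn-/-, 8.09 and 8.23 in hDMD x mdx, 7.56 in hDMD x mdx x utrn-/-, 8.46 in hDMD, and 7.90 and 9.78 in wild-type. The 3 arrays without dystrophin differed by less than the hDMD x mdx pair, and all 4 arrays with the human gene lay below them. Wild-type 1 lay among the carriers of the human gene, while wild-type 2 lay above all other arrays.

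The other kept probe sets of the heavy chains followed the represented ones in their highest array. The H2-K1 probe set 97125_f_at lay between 5.52 in wild-type 1 and 8.43 in wild-type 2. H2-D1 probe set 101886_f_at lay between 6.94 and 9.89 in the same arrays, and 97541_f_at between 5.43 in hDMD x mdx 2 and 7.43 in wild-type 2.

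Of the processing genes, Tap1 had 5.86 and 6.05 in mdx, 5.56 in mdx x utrn-/-, 5.55 and 5.10 in hDMD x mdx, 5.38 in hDMD x mdx x utrn-/-, 5.23 in hDMD, and 4.91 and 6.03 in wild-type. It was the only gene of the 10 whose highest array was not wild-type 2, by 0.02 below mdx 2. Psmb8, an inducible proteasome subunit, had 6.56 and 6.07 in mdx, 6.43 in mdx x utrn-/-, 5.68 and 5.31 in hDMD x mdx, 5.53 in hDMD x mdx x utrn-/-, 5.19 in hDMD, and 5.34 and 6.70 in wild-type. Without wild-type 2, its arrays lacking dystrophin lay above all arrays that carry it.

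Psmb9, another inducible subunit, whose gene starts beside Tap1, was low throughout. It had 4.80 and 4.82 in mdx, 5.07 in mdx x utrn-/-, 4.67 and 4.60 in hDMD x mdx, 4.46 in hDMD x mdx x utrn-/-, 4.0 in hDMD, and 4.10 and 5.15 in wild-type. As in Psmb8, hDMD was the lowest array and wild-type 2 the highest, within a narrower range.

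Wild-type 2 stood apart from wild-type 1 in every kept probe set annotated to 1 of these genes alone. It was the highest array in 12 of 13 kept probe sets, where 11.1% of all kept probe sets have it as the highest, and it exceeded wild-type 1 by over 1 log2 unit in 13 of 13, against 9.59% of all. Over the 10 genes the wild-type pair differed by a median of 2.02, and over all kept probe sets by 0.50. The mdx pair differed by 0.19 over the 10 genes and by 0.45 over all probe sets, and the hDMD x mdx pair by 0.61 and 0.48. H2-Ab1 had the widest gap between the wild-type mice among the members, 4.20, with wild-type 1 at the floor. Every comparison with the wild-type mice has this spread inside its control group.

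Markers of other cells moved with wild-type 2. All 9 kept adipocyte markers had it as their highest array, and their summed intensity was 7769 there against 2141 to 4418 in the other arrays. Adipoq, an adipocyte hormone, lay at 9.70 in wild-type 2 and at 6.64 in wild-type 1. The 15 kept macrophage markers summed to 2016 and 1308 in mdx, 1041 in mdx x utrn-/-, 525 and 554 in hDMD x mdx, 459 in hDMD x mdx x utrn-/-, 456 in hDMD, and 370 and 1662 in wild-type. Macrophage markers were thus higher in mdx 1 than in wild-type 2, where class II genes were higher in wild-type 2 than in mdx 1. The B cell markers, 9 kept of 14 listed, summed to 204 to 875 with the highest value in wild-type 2. Of the defining B cell genes, Cd22 was at the floor in all arrays, while Ms4a1 lay between 5.29 and 6.76 with wild-type 2 highest and Pax5 between 5.47 and 6.80 with hDMD x mdx x utrn-/- highest. The T and NK cell markers, 6 kept of 18 listed, summed to 46.9 to 206 with hDMD highest, and Cd3e was at the floor in all arrays, while Cd4 lay between 4.0 and 5.83. Dendritic cell markers, 6 kept of 11, summed to 169 to 535, and wild-type 2 had 294. The part of these cells in the members' values was not tested.

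**Figure D2:**
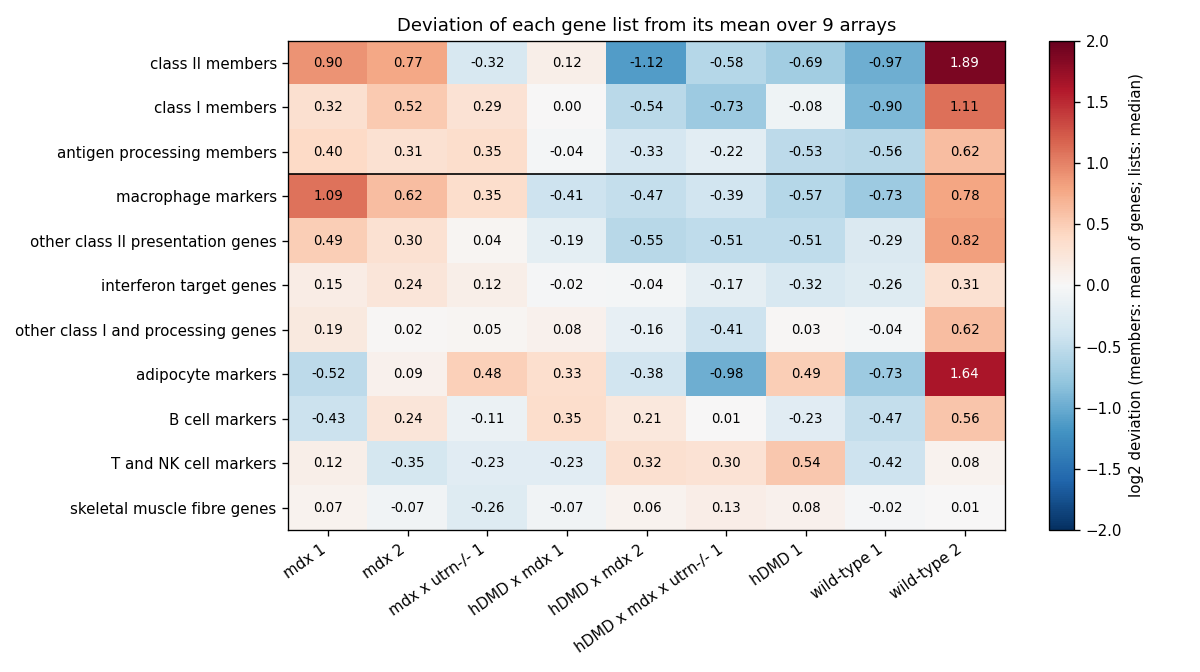
Deviation from the mean over 9 arrays (colour and printed value, log2) of the member classes (mean of genes, top 3 rows) and of marker and pathway lists (median of kept genes, lower rows) in each array (columns). Wild-type 2 is the highest array for the member rows and for the other class II, other class I, interferon target, adipocyte and B cell rows. The highest array is mdx 1 for macrophage markers, hDMD for T and NK cell markers and hDMD x mdx x utrn-/- for skeletal muscle fibre genes.

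Arrays lacking dystrophin (mdx and mdx x utrn-/-, n = 3) were compared with the arrays carrying it (hDMD x mdx, hDMD x mdx x utrn-/-, hDMD and wild-type, n = 6), to ask how antigen presentation genes differ in dystrophic muscle. All 13 kept probe sets of the members had a higher mean without dystrophin, by 0.13 to 1.08. The median difference was 0.56 over class II genes, 0.49 over class I genes and 0.45 over processing genes, beside -0.01 over all 7453 probe sets. None of the 13 passed limma's test with Benjamini-Hochberg adjustment, where 9 of all 7453 probe sets passed, 0.121%. Only Psmb8 had an unadjusted p under 0.05, among 416 of all probe sets. The groups overlapped in 13 of 13, and 1.52% of all probe sets had every array without dystrophin higher and 1.42% lower. Macrophage markers moved with the members here too: 15 of 15 kept markers had a higher mean without dystrophin, with a median of 0.85. Their part in the members' differences was not tested.

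B2m averaged 9.18 ± 0.026 without dystrophin (SD, n = 3) and 8.34 ± 0.77 with it (SD, n = 6), a difference of 0.84 ± 0.40 (SE, adjusted p = 0.919). Psmb8 averaged 6.35 ± 0.26 without dystrophin and 5.63 ± 0.55 with it, a difference of 0.73 ± 0.32 (SE, adjusted p = 0.875). H2-Aa had the largest difference of the members, 1.08 ± 0.79 (SE, adjusted p = 0.999), from a mean of 7.27 ± 0.78 without dystrophin and 6.19 ± 1.59 with it. The scatter of H2-Aa among carriers of dystrophin was larger than the difference.

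Wild-type 2 was singled out by the members' own values, as the highest array in 12 of 13 kept probe sets. Leaving it out was therefore bound to raise the differences. Left without wild-type 2, the difference was 0.99 over class II genes, 0.77 over class I genes and 0.59 over processing genes. Then 5 of 13 probe sets had all arrays without dystrophin above all 5 carriers, where 3.30% of all probe sets do. They were B2m, 1 of the H2-D1 probe sets (97540_f_at), Tap1, Psmb8 and Psmb9, so that the 3 processing genes were all among them and no class II gene was. Tap1 was among them by a minute gap, with 5.5527 in hDMD x mdx 1 and 5.5575 in mdx x utrn-/-. In the other 8, carriers of dystrophin other than wild-type 2 also overlapped the arrays without it. B2m then differed by 1.13 ± 0.24 (SE, adjusted p = 0.168) and Psmb8 by 0.94 ± 0.22 (SE, adjusted p = 0.188). None of the 13 passed limma's test, beside 0.148% of all probe sets, and 9 of the 13 had an unadjusted p under 0.05, among 520 of all. Without wild-type 1 in place of wild-type 2, the class I median was 0.28, and 0 of the 13 had an unadjusted p under 0.05 by limma, among 434 of all. Once carriage of the human gene was added as a covariate, the fit set the arrays without dystrophin against the wild-type mice alone, wild-type 2 included. No array without dystrophin carries the human gene, so this is not an adjustment for it. The class II median was then 0.00 and 3 of 13 probe sets turned negative (H2-Aa, H2-Eb1 and 97541_f_at of H2-D1).

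Within the bright arrays the median difference was 1.11 for class II, 1.01 for class I and 0.56 for processing genes. In the dim arrays, which hold wild-type 2, it was 0.41, 0.24 and 0.39. H2-Ab1 and the H2-D1 probe set 97541_f_at were lower without dystrophin in the dim arrays, by -0.13 and -0.25.

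**Figure D3:**
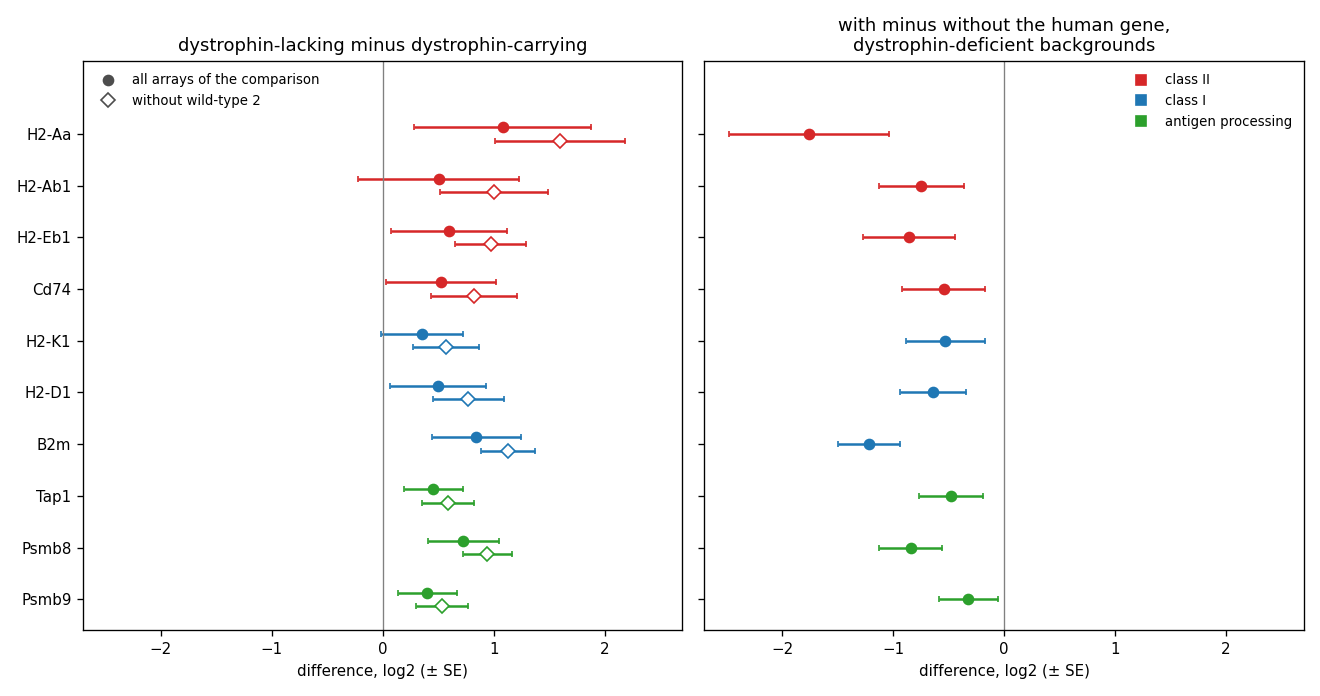
Difference ± SE (x axis, log2) for each of the 10 genes (y axis). On the left, arrays without dystrophin minus arrays with it, for all 9 arrays (filled) and without wild-type 2 (open); on the right, carriers minus non-carriers of the human gene on dystrophin-deficient backgrounds. Every point on the left lies above 0 and every point on the right below 0 (Psmb9 is above 0 on intensities that were not normalised), with H2-Aa farthest from 0 and with wide errors.

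On the dystrophin-deficient backgrounds, mice with the human gene (hDMD x mdx and hDMD x mdx x utrn-/-, n = 3) were compared with mice without it (mdx and mdx x utrn-/-, n = 3), with utrophin genotype as a term, to ask how the members differ when human dystrophin is present. This comparison holds no wild-type mouse. All 13 kept probe sets were lower with the human gene, by -0.32 to -1.76 in the 10 genes, though 2 of them turned on intensities that were not normalised. The medians were -0.80 over class II, -0.64 over class I and -0.48 over processing genes, beside 0.02 over all probe sets. The 2 were the H2-D1 probe set 97541_f_at and Psmb9, at 0.09 and 0.07 on those intensities, where the median of all probe sets shifted to 0.24.

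In 6 of the 13 probe sets every mouse with the human gene lay below every mouse without it, where 5.30% of all probe sets do and 5.23% do the reverse. These were B2m, 2 of the 3 tested H2-D1 probe sets (97540_f_at and 101886_f_at), Tap1, Psmb8 and Psmb9. For Tap1 the gap was minute, with 5.5527 in hDMD x mdx 1 and 5.5575 in mdx x utrn-/-. For 97540_f_at the same arrays had 8.79 and 8.86. By class the 6 were 3 of 6 class I probe sets, 3 of 3 processing probe sets and 0 of 4 class II probe sets. In each class II probe set the mdx x utrn-/- mouse lay below a carrier. None passed limma's test, as did 0% of all 7453 probe sets, and 4 had an unadjusted p under 0.05, among 409 of all.

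B2m averaged 7.96 ± 0.36 with the human gene and 9.18 ± 0.026 without it (SD, n = 3 each), a difference of -1.22 ± 0.28 (SE, unadjusted p = 0.00275 and adjusted p = 0.399 by limma). The 3 mice with the gene lay at 8.09, 8.23 and 7.56; none overlapped the mice without it. Psmb8 averaged 5.51 ± 0.19 with the gene and 6.35 ± 0.26 without it, a difference of -0.84 ± 0.29 (SE, adjusted p = 0.734). H2-Aa differed by -1.76 ± 0.72 (SE, adjusted p = 0.869), with 1 carrier at the floor, and the H2-D1 probe set 101886_f_at by -0.68 ± 0.29 (SE, adjusted p = 0.909).

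The same direction held at both brightness levels for the class medians, -0.69 in bright and -0.89 in dim arrays for class II, -0.29 and -0.82 for class I, and -0.39 and -0.47 for processing genes. B2m was lower by -1.06 in the bright pair and by -1.30 in the dim arrays. The H2-K1 probe set 97125_f_at was the exception in the bright pair, higher by 0.11. Macrophage markers moved with the members here: 13 of 15 kept markers were lower with the human gene, with a median of -1.04, and their summed intensity was 459 to 554 with it and 1041 to 2016 without it. Of the defining markers, Cd68 lay at 4.79, 4.94 and 5.08 with the human gene and at 7.27, 6.21 and 6.17 without it, and the Adgre1 probe set stayed between 4.0 and 5.10 in all arrays. Their part in the members' differences was not tested.

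Pairs of genotypes gave further comparisons, which share arrays with these and with each other. The hDMD x mdx mice lay below the mdx mice in mean in all 13 probe sets (n = 2 each), without overlap in 10 of them, where 13.1% of all probe sets do so and 13.9% do the reverse. The medians were -1.18 over class II, -0.54 over class I and -0.63 over processing genes. Limma called none of the 13, as 0% of all, with 0 of the 13 at an unadjusted p under 0.05 on 3 residual degrees of freedom. H2-Aa differed by -2.23 ± 1.13 (SE) and B2m by -1.01 ± 0.59 (SE), with an adjusted p of 1.0 each. The size for H2-Aa depended on hDMD x mdx 2, which was at the floor: without it H2-Aa differed by -0.74, and without hDMD x mdx 1 by -3.72. Without hDMD x mdx 2, 3 of 13 probe sets (H2-K1 93120_f_at and 97125_f_at and H2-D1 97541_f_at) turned positive. On intensities that were not normalised 5 of 13 were positive, where the median of all probe sets was 0.50.

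Between mdx and wild-type mice (n = 2 each) the members overlapped in 13 of 13 probe sets, where 11.2% of all were higher and 10.7% lower without overlap. The mean was higher in mdx in 10 of 13, with medians of 0.39 for class II, 0.33 for class I and 0.30 for processing genes, and 0 passed or had an unadjusted p under 0.05. The sign differed by pair: the bright mdx mouse exceeded the bright wild-type mouse by a median of 1.27 over the 10 genes, and the dim mdx mouse lay below wild-type 2 by -0.72. Without wild-type 2 all 13 probe sets were higher in mdx, and without wild-type 1 all 13 were lower. The direction thus followed which wild-type mouse was kept.

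The mdx x utrn-/- mouse (n = 1) separated the classes when set against the mdx mice (n = 2). All 4 class II genes were lower in it, by a median of -1.23, outside the mdx pair in each. Of 6 class I probe sets 3 were higher and 3 lower, with a median of -0.13 over genes, and B2m differed by 0.03. Over the 13 probe sets, 8 lay below and 4 above both mdx mice, where 34.9% and 31.4% of all probe sets did. Limma called none of the members and 0.0268% of all, with 0 of the 13 at an unadjusted p under 0.05. The mouse was 5 weeks old, against 15 and 13 weeks for mdx, and its neutrophil markers summed to 2678, against 259 and 107 in mdx. Of 15 kept macrophage markers 14 were lower in it, with a median of -0.60. The part of these cells in the members' values was not tested. With brightness as a block 2 of the 13 member probe sets were higher in this mouse and 11 lower. With age as a covariate 8 of 13 probe sets were higher in this mouse and 5 lower. Among class II genes H2-Aa (0.51) and H2-Eb1 (0.22) turned positive while Cd74 (-0.35) and H2-Ab1 (-1.86) did not. The age slope in this fit came almost wholly from the hDMD x mdx pair, aged 24 and 10 weeks. In that pair age cannot be told apart from brightness, and H2-Aa was at the floor in 1 array. On intensities that were not normalised all 13 were lower, where the median of all probe sets was -0.79.

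Of the utrophin-deficient mice, 1 carried the human gene and 1 did not, and they were compared in the genotype fit, where a genotype with 1 mouse is assumed to vary like those with 2. In the carrier, 12 of 13 kept probe sets were lower, with medians of -0.85 over class I, -0.15 over class II and -0.61 over processing genes, beside 0.00 over all probe sets. B2m stood at 7.56 in the carrier and 9.20 in the mouse without the gene, while Cd74 stood at 7.68 and 7.77. B2m differed by -1.64 ± 0.84 (SE, unadjusted p = 0.0909 and adjusted p = 0.752 by limma), and Cd74 by -0.09 ± 1.03 (SE). Limma called none of the 13 and 0.0403% of all probe sets, with 0 of the 13 at an unadjusted p under 0.05. So here the class I genes were the farther apart, whereas between hDMD x mdx and mdx mice the class II genes were, a contrast that was not tested.

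The hDMD mouse (n = 1) was lower than the wild-type mean in 12 of 13 probe sets and below both wild-type mice in 5 and above both in 0, where 28.1% and 32.3% of all were. The hDMD x mdx mice were lower in mean in 12 of 13 and overlapped wild-type in all 13, where 8.48% of all lay lower and 10.5% higher without overlap. The hDMD x mdx x utrn-/- mouse was lower in 13 of 13 and below both wild-type mice in 3 and above both in 0, where 35.2% and 35.4% of all were. The mdx x utrn-/- mouse was higher than the wild-type mean in 7 and lower in 6 and overlapped in all 13, where 31.6% of all lay higher and 31.8% lower without overlap. Against hDMD x mdx mice, the hDMD x mdx x utrn-/- mouse was lower in 8 of 13 and below both in 5 and above both in 0, where 35.3% and 32.9% of all were. Set against wild-type 1 alone, the counts of higher probe sets were 8 of 13 for hDMD, 12 for hDMD x mdx, 10 for hDMD x mdx x utrn-/- and 13 for mdx x utrn-/-. Set against wild-type 2 alone, all 13 were lower in each of these 4 comparisons. So the sign of most of these differences turned with the wild-type mouse that was kept. With both wild-type mice, in none of these comparisons was a member called or at an unadjusted p under 0.05, and 0% of all probe sets were called in each. The test over any of 6 genotypes also called 0 of 13 and 0% of all, with the lowest unadjusted p of the members at 0.306 for B2m, where 220 of all probe sets had an unadjusted p under 0.05. The effect of the human gene on a mouse with its own dystrophin and on mdx mice was compared by an interaction term, for which limma called 0 of 13 members and 0 of all, and 94 of all probe sets had an unadjusted p under 0.05.

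Class I and class II genes were compared through the mean deviation of their genes from each gene's mean over the 9 arrays. Class II lay at 0.90 and 0.77 in mdx, -0.32 in mdx x utrn-/-, 0.12 and -1.12 in hDMD x mdx, -0.58 in hDMD x mdx x utrn-/-, -0.69 in hDMD, and -0.97 and 1.89 in wild-type. Class I lay at 0.32 and 0.52 in mdx, 0.29 in mdx x utrn-/-, 0.00 and -0.54 in hDMD x mdx, -0.73 in hDMD x mdx x utrn-/-, -0.08 in hDMD, and -0.90 and 1.11 in wild-type. Both classes had their highest array in wild-type 2, and the mdx x utrn-/- array was the only one in which class II lay below 0 and class I above it.

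The processing genes had deviations of 0.40 and 0.31 in mdx, 0.35 in mdx x utrn-/-, -0.04 and -0.33 in hDMD x mdx, -0.22 in hDMD x mdx x utrn-/-, -0.53 in hDMD, and -0.56 and 0.62 in wild-type. Class II spanned 3.01 log2 units over the arrays, class I 2.0 and processing genes 1.18. Without wild-type 2 they spanned 2.02, 1.41 and 0.96. The SD between mice of 1 genotype, pooled over the genotypes with 2 mice, was 1.27 for class II, 0.85 for class I and 0.50 for processing genes. In the same order it was 2.02, 1.42 and 0.83 in wild-type and 0.88, 0.38 and 0.21 in hDMD x mdx. In mdx it was 0.09, 0.14 and 0.07. So the class with the wider range also had the wider spread between replicates in wild-type and hDMD x mdx, but not in mdx. The difference between the classes was not tested, since their genes were chosen with earlier values known.

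**Figure D4:**
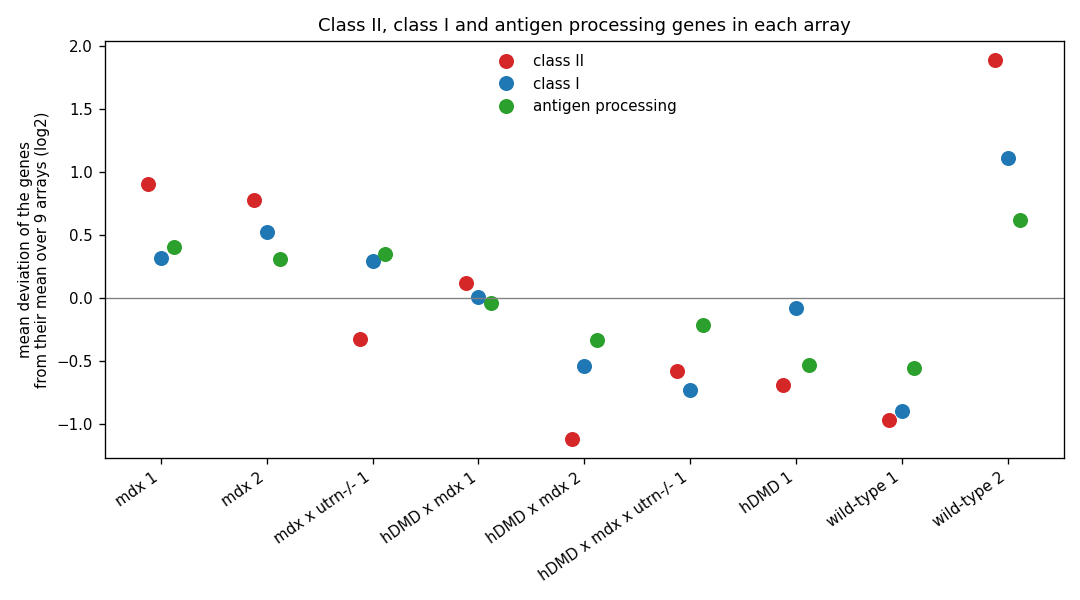
Mean deviation of the class II, class I and processing genes from their mean over 9 arrays (y axis, log2) in each array (x axis), with 1 point per class. The 3 classes lie close together in hDMD x mdx 1 and far apart in wild-type 2, where they reach 1.89, 1.11 and 0.62; in mdx x utrn-/- class II is below 0 and the others above.

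Other genes of the same pathways were read from lists whose members were named with earlier values of these data known. Of 13 other class II presentation genes, 8 had a kept probe set. Without dystrophin 6 of these were higher and 2 lower, with a median of 0.46, and with the human gene 2 were higher and 6 lower, with a median of -0.79. The widest were the endosomal proteases that cut antigen and the invariant chain. Ctss, cathepsin S, lay at 7.99 and 8.50 in mdx, 6.95 in mdx x utrn-/-, 6.14 and 5.26 in hDMD x mdx, 4.18 in hDMD x mdx x utrn-/-, 4.77 in hDMD, and 6.03 and 7.20 in wild-type. It differed by 2.22 ± 0.58 without dystrophin (SE, adjusted p = 0.383) and by -2.62 ± 0.33 with the human gene (SE, adjusted p = 0.136). Lgmn, legumain, differed by 1.27 ± 0.39 and by -1.58 ± 0.31 in these comparisons, and Ifi30, a lysosomal thiol reductase, by 1.0 ± 0.40 and by -1.38 ± 0.34. Unlike the class II members, Ctss was higher in both mdx mice than in wild-type 2.

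The probe sets of 2 regulators were near the floor. Ciita, the transactivator of class II genes, lay between 4.0 and 4.87 and was not kept, and Ifng, interferon gamma, lay between 4.0 and 4.65. Of 17 listed genes of interferon gamma signalling and MHC regulation, 11 were kept, with medians of 0.04 without dystrophin and -0.06 with the human gene. Jak2 and Jak1, kinases of the interferon receptors, differed by -0.51 ± 0.27 and -0.40 ± 0.22 without dystrophin, and Jak2 by 0.65 ± 0.36 with the human gene. None of the list was called.

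Of 24 listed class I and processing genes beyond the members, 10 were kept, with medians of -0.01 without dystrophin and -0.25 with the human gene. Wild-type 2 was the highest array in 7 of these 10, and their summed intensity was 862 there against 309 to 452 in the other arrays. Of 30 interferon target genes 15 were kept, with medians of 0.16 without dystrophin and -0.07 with the human gene. Ifitm3, an interferon-induced membrane protein, lay at 8.75 and 7.71 in mdx, 8.67 in mdx x utrn-/-, 6.87 and 7.66 in hDMD x mdx, 6.95 in hDMD x mdx x utrn-/-, 6.87 in hDMD, and 7.10 and 8.22 in wild-type. It differed by 1.10 ± 0.36 without dystrophin and by -1.22 ± 0.40 with the human gene (SE, adjusted p = 0.675 and 0.711). Ifit3 and Mx1, antiviral genes, differed the other way, by 0.53 ± 0.30 and 0.46 ± 0.31 with the human gene, and Ifit3 by -0.42 ± 0.24 without dystrophin. The 3 constitutive catalytic subunits of the proteasome, which Psmb8, Psmb9 and their partner replace, had medians of 0.05 and -0.03. No gene of these lists was called in either comparison.

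The genes outside the members with the most similar pattern were named by Pearson's correlation with the class deviation over the 9 arrays, which share their normalisation and the height of wild-type 2. For class I they were H2-K2, a class I gene of like sequence (r = 0.970), Cltc, the clathrin heavy chain (0.940), Ugdh (0.930), Hp, haptoglobin (0.923), and Igfbp4 (0.913). For class II they were Cd53, a leukocyte tetraspanin (0.974), Shisa5 (0.939), H2-DMa, which helps to load peptide onto class II (0.935), Cltc (0.933) and Blvra (0.922). All of them had wild-type 2 as their highest array. Without it, over 8 arrays, the correlations lay at 0.952 for H2-K2 and 0.958 for Cd53.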

How the data were processed

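Per the labels' protocols, RNA from frozen gastrocnemius was extracted with Trizol and RNeasy and copied into biotin-labelled cRNA. The authors deposited linear probe set intensities, of which 19.4% to 29.9% per array were at or below 0. Their expression measure, software and scaling are unknown here. The 66 control probe sets were left out. The other 12422 were quantile normalised before log2 was taken of the value plus 16, with negative values first raised to 0, which understates changes of dim genes. Probe sets above the 40th percentile of mean log2 (7453) were tested with limma 3.58.1 in R 4.3.3, two-sided, with Benjamini-Hochberg adjustment over all 7453 and a threshold of 0.05. The residual degrees of freedom were 3 in the genotype fit, 7 in the dystrophin fit and 3 in the human gene fit. Genotypes with 1 mouse were assumed to vary like those with 2.

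Symbols came from the platform annotation, updated through Entrez identifiers: 10833 probe sets had 1 symbol, 396 several, and 1193 were not listed. Named were all members and the 5 genes of most similar pattern per class. From the other lists, some genes with large differences in the dystrophin and human gene comparisons were named, but not from every list or direction. No gene of the other class I and processing list was named for its difference. Nor were the other class II presentation genes that went the opposite way to the members. H2-Ea, Ciita, Ifng and the cell markers were named after their values were seen. The members and lists were chosen with earlier results of these data known. Alternatives were deposited intensities, no filter, pseudocounts of 1 and 64, brightness as a block, age or the human gene as covariates, dim arrays alone, and each mouse left out. The number of arrays limits the precision, and each array is 1 mouse.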

Additional observations from a re-analysis of the deposited data

Results flagged for a closer look

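Psmb8 was 6.70 in wild-type 2, and the other 5 arrays carrying dystrophin lay between 5.19 and 5.68. The gap to the nearest of them was 0.675 of the range of the 6 arrays, above Dixon's critical value for 6 samples. It was the only one of the 13 tested probe sets of the members to stand apart in this way, and 5.57% of all probe sets did; chance alone would mark about 1 group in 20. In the other members wild-type 2 was high as well, but the remaining carriers were more scattered.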

How the results depend on the processing

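No member was called in any of 160 fits over 18 alternative settings. The smallest adjusted p of a member by limma was 0.152, for B2m in the human gene comparison with a pseudocount of 64. Not all of these fits were separate checks. The human gene fit holds no wild-type or hDMD mouse, so leaving 1 of those out repeated it. On deposited intensities at most 12 of 7453 probe sets had an unadjusted p under 0.05 by limma. The medians over class I and class II were not tested, so they could neither have nor lose a call. With each mouse left out in turn, the class I median lay between 0.28 (without wild-type 1) and 0.77 (without wild-type 2) in the dystrophin comparison and between -0.87 and -0.47 in the human gene comparison. The class II median lay between 0.40 and 0.99 (without wild-type 2) and between -1.18 and -0.58. Under the other settings class I lay between 0.24 (dim arrays alone) and 0.56, and between -0.79 and -0.57; class II lay between 0.00 (human gene as a covariate) and 0.96 (pseudocount of 1), and between -1.0 and -0.41 (deposited intensities). Without both wild-type mice, an alternative chosen after seeing the data, the dystrophin comparison gave 0.56 for class I and 0.84 for class II. The cause of these shifts was not tested. Of 130 member results, 85 had another sign in at least 1 setting, 4 of them in the dystrophin comparison and 2 in the human gene comparison. Over all probe sets the calls ranged between 0 and 18 around 9 in the dystrophin comparison, between 0 and 4 around 0 in the human gene comparison, and between 0 and 6 around 2 for mdx x utrn-/- against mdx. They reached 12 for mdx x utrn-/- against wild-type and 3 for hDMD x mdx x utrn-/- against wild-type and against hDMD x mdx, where 0 were called. Deposited intensities alone shifted the median of all probe sets by over 0.1, to -0.12 in the dystrophin comparison and 0.24 in the human gene comparison. Between genotypes it lay between -1.59 (hDMD x mdx x utrn-/- against hDMD x mdx) and 0.52 (hDMD x mdx against wild-type), and at 0.02 for mdx against wild-type. The test of the 2 utrophin-deficient mice, added after seeing the data, called no member in 13 settings either, with a smallest adjusted p of 0.276 (brightness as a block). No paired analysis was possible because the labels give no replicate numbers. Signal near the floor limits H2-Ab1, H2-Aa and Psmb9, each with 1 array at the floor.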
